A study of Mus musculus with 6 samples.

Results

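Imprinted genes are genes of which, in many tissues, one parental copy is silent. This account covers 35 such mouse genes in 17 chromosomal clusters, chosen by name from the 49315 genes of the deposited table. The list was drawn up, with earlier results of these data known, from genes known to be imprinted. Of these, 34 had enough reads to be tested. The exception was Phlda2, a maternally expressed gene of the Kcnq1 cluster, which had a single read in the library CAAHR 36 and none in the other libraries, so that both groups lay at or under the floor of 3 counts a library and no fold is given.

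The study asked what constant activity of AHR, the aryl hydrocarbon receptor, which normally turns genes on when a ligand binds it, does in skeletal muscle. Male C57BL6J mice, an inbred strain, received an adeno-associated virus (AAV9) into the gastrocnemius, a calf muscle, at 5 months of age, and the muscle was collected 5 months later. In the AAV9-HSA-CAAHR group the virus carried CAAHR, a mouse AHR without its ligand-binding domain that needs no ligand (n = 3; libraries CAAHR 31, CAAHR 34 and CAAHR 36). In the AAV9-HSA-GFP group it carried green fluorescent protein (n = 3; libraries GFP 42, GFP 43 and GFP 46). The human skeletal actin (HSA) promoter drives both cargoes in muscle fibres, the authors raise that it may not reach every fibre, and every muscle received a virus, so no uninjected muscle entered the comparison. Whole muscle pieces were sequenced, and nuclei of vessels, connective tissue, nerve and immune cells contributed RNA as well.

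Each parental copy of an imprinted gene carries its own methylation mark at a control region, set in the egg or sperm, and this mark decides which copy is read. Neighbouring genes of a cluster therefore often share a control region, with some read from the paternal copy and others from the maternal one. Many imprinted genes act on growth, and several, such as H19, Igf2 and Peg3, are studied in muscle growth and in the stem cells of muscle. The counts do not separate the parental copies, so all values are the sum of both.

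The libraries held between 43432994 and 58825752 counts. Muscle identity was clear from Acta1, the actin of skeletal muscle fibres, at a mean of 36461 CPM (read counts relative to the TMM-scaled library size) in AAV9-HSA-GFP muscles and 21799 CPM in AAV9-HSA-CAAHR muscles. The delivered activity was also visible: Ahr, whose reads can include the delivered gene, was at 16.7 ± 6.44 CPM (SD, n = 3) against 2.29 ± 0.37 CPM, and 5 of 5 listed AHR targets were higher, with Cyp1a1, a xenobiotic-metabolising enzyme, at 1476 ± 227 CPM (SD, n = 3) against 6.79 ± 0.94 CPM. Library CAAHR 34 stood apart from CAAHR 31 and CAAHR 36 in its slow-fibre genes (below). Over all genes, edgeR's quasi-likelihood test called 1205 of 15847 at a Benjamini-Hochberg adjusted p under 0.05, which is 7.6%, with 481 higher (3.04%) and 724 lower (4.57%). That split depended on the scaling, with 358 higher and 990 lower after upper quartile scaling and 876 higher and 600 lower after scaling to library size alone.

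Of the 34 tested imprinted genes, 6 were called, beside 7.6% of all tested genes. The list was drawn up with earlier results of these data known, so these counts are a description and do not show an excess. Peg3, Usp29 and Zim1, which form the Peg3 cluster, and Igf2r were higher in AAV9-HSA-CAAHR muscles, and the neighbours Nnat and Blcap were lower. Usp29 entered the test only through its level in AAV9-HSA-CAAHR muscles, and without it 5 of 33 were called (3 higher and 2 lower). Outside the Peg3 cluster, 3 of 31 tested genes were called. The median log2 fold change of the 33 genes was -0.0032, against 0.0086 for all genes tested. Between the groups, 13 of the 33 did not overlap in CPM, 8 with every AAV9-HSA-CAAHR library above and 5 with every AAV9-HSA-GFP library above, and among all tested genes 29.9% did not overlap (15% with AAV9-HSA-CAAHR above and 14.9% with AAV9-HSA-GFP above). An unadjusted p under 0.05 was reached by 13 of the 33, and by 23.9% of all tested genes. Read by the parental copy that is usually active, 2 genes rose and 1 fell among 14 tested maternally expressed genes, and 1 rose and 1 fell among 18 paternally expressed genes apart from Usp29.

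**Figure D1:**
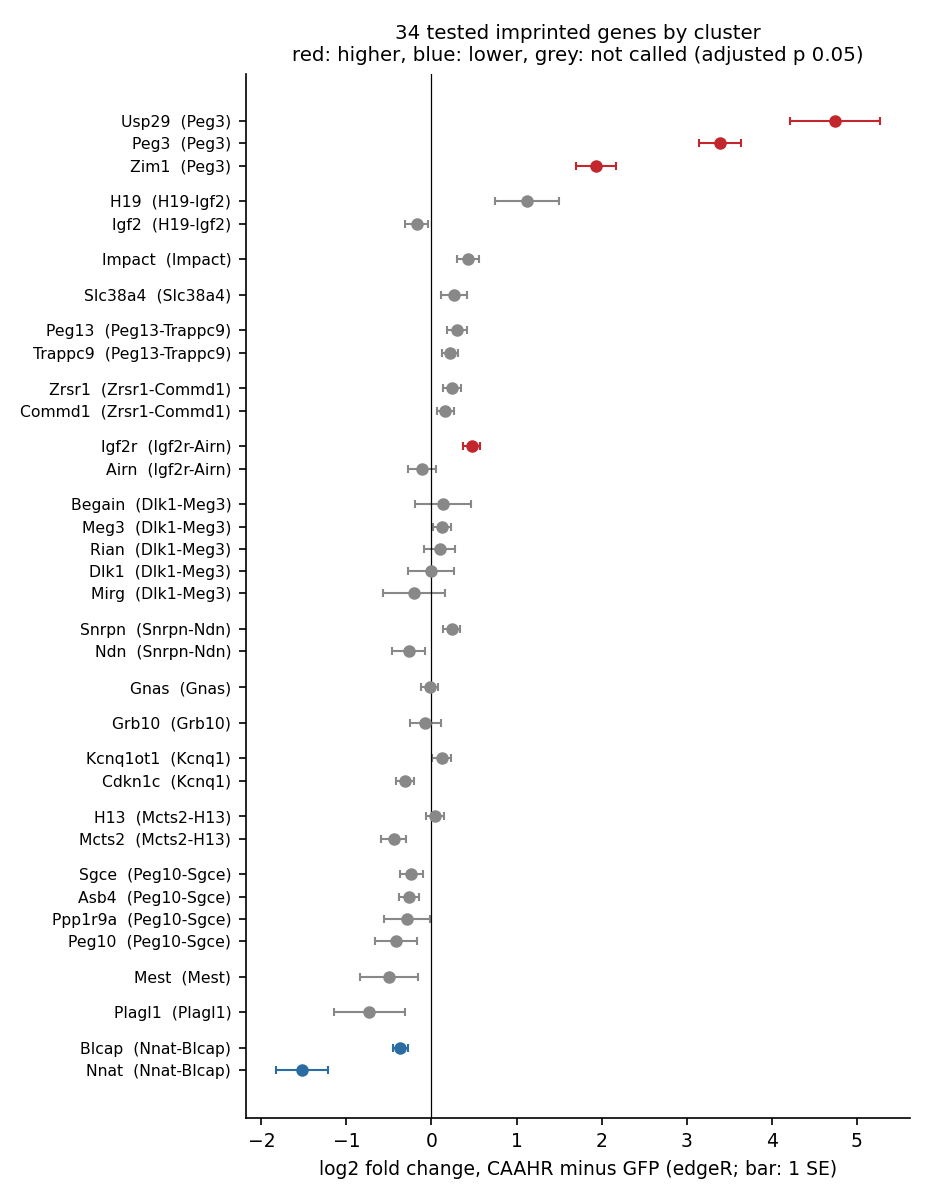
Log2 fold change (AAV9-HSA-CAAHR minus AAV9-HSA-GFP, x axis) of the 34 tested imprinted genes, grouped by cluster on the y axis; points are edgeR estimates and bars 1 SE, red for higher, blue for lower and grey for not called. The 3 Peg3 cluster genes lie at 1.94, 3.39 and 4.74, and Nnat is the lowest at -1.52.

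The sequences just upstream of the starts of called genes are given first, because AHR with its partner ARNT binds DNA at a short core with the letters GCGTG. A copy on the opposite strand, read in reverse, is spelled CACGC. The windows run from 250 bases before to 50 bases after a RefSeq transcript start (GRCm38.p6), 5′ to 3′ on the gene's strand, with copies of the core in capitals. Peg3 is at chr7:6730370-6730669 (minus strand), Zim1 at chr7:6696383-6696682 (minus strand), Igf2r at chr17:12769657-12769956 (minus strand) and Nnat at chr2:157559828-157560127 (plus strand).
Peg3: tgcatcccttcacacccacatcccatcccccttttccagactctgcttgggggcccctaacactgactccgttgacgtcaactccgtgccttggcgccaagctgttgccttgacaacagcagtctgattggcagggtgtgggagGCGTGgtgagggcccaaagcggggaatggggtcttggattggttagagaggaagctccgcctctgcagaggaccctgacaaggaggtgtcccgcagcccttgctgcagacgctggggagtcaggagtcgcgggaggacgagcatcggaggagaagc
Zim1: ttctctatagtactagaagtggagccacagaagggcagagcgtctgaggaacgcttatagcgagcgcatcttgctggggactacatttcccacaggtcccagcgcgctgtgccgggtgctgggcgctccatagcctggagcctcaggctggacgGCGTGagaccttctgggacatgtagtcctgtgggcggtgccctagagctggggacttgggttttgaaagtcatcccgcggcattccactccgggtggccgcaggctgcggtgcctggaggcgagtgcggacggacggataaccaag
Igf2r: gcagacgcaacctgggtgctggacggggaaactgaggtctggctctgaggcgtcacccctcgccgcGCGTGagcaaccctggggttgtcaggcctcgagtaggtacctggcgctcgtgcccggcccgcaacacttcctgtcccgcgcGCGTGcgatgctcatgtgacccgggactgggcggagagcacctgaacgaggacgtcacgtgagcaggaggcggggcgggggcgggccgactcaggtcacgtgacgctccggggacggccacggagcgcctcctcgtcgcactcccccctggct
Nnat: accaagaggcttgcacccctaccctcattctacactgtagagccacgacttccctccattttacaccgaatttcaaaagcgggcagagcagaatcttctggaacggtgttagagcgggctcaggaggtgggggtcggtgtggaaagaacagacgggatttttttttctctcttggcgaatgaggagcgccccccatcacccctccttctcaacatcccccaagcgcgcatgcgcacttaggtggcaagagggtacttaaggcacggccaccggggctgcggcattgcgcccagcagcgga

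The core occurred once in the Peg3 window, once in that of Zim1 and at 2 places in that of Igf2r. Nnat and Blcap held none in theirs. Usp29 starts 147 bp from Peg3 on the opposite strand, and the windows of the pair (Usp29 at chr7:6730333-6730632, plus strand) share 263 of their 300 bases, including the same copy of the core. The core is common: it was in 10639 of 32851 such windows (32.4%) and in at least 1 window of 9500 of 27025 genes (35.2%), searched on both strands. Windows were found for 28 of the 35 imprinted genes, and 16 of these held it in at least 1 window. Several of these genes have more than 1 window, and by window 22 of their 50 held it. A match of letters is a description and not a binding site.

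Peg3 encodes a zinc-finger protein and is read from the paternal copy. It lies on chromosome 7 from 6703892 to 6730431 (GRCm38). Its level was 52.9, 70.1 and 45.9 CPM in CAAHR 31, 34 and 36, and 7.21, 4.83 and 4.06 CPM in GFP 42, 43 and 46. Every AAV9-HSA-CAAHR library was above every AAV9-HSA-GFP library, and the group means of 56.3 ± 12.5 and 5.37 ± 1.64 CPM (SD, n = 3) differed 10.5-fold. The log2 fold change was 3.39 ± 0.25 (SE) with an adjusted p of 0.000566 by edgeR's quasi-likelihood test, and the gene stood at place 38 of all tested genes by p.

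Usp29, a ubiquitin-specific protease that is also paternally expressed, starts next to Peg3 and runs the other way. In CAAHR 31, 34 and 36 it had 106, 159 and 92 counts (2.10, 2.78 and 1.51 CPM). In GFP 42, 43 and 46 it had only 8, 2 and 1 counts (0.166, 0.0481 and 0.0189 CPM), of which the last pair lies under the floor of 3 counts. The groups did not overlap, and Usp29 passed the filter on low counts only through its level in AAV9-HSA-CAAHR muscles. Summed over libraries and scaled for depth, 357 counts against 11 gave a ratio of 27.5, with a 95% exact (Clopper-Pearson) interval of 15.2 to 55.6 that covers counting error only. The fitted log2 fold change of 4.74 ± 0.53 is given as a description, since a gene that passes the filter through its high group alone had to differ.

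Zim1, a zinc-finger gene that is usually read from the maternal copy, starts 33981 bp from the Peg3 start. It had 8.38, 10.7 and 7.60 CPM in CAAHR 31, 34 and 36 and 2.30, 3.08 and 1.62 CPM in GFP 42, 43 and 46. Again no libraries of the groups overlapped, the means differed 3.81-fold, and the log2 fold change was 1.94 ± 0.23 (edgeR, adjusted p = 0.00186). In all 3 genes CAAHR 34 was the highest and CAAHR 36 the lowest library of its group. Cyp1a1 was likewise highest in CAAHR 34, at 1680 CPM, but lowest in CAAHR 31, at 1231 CPM.

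**Figure D2:**
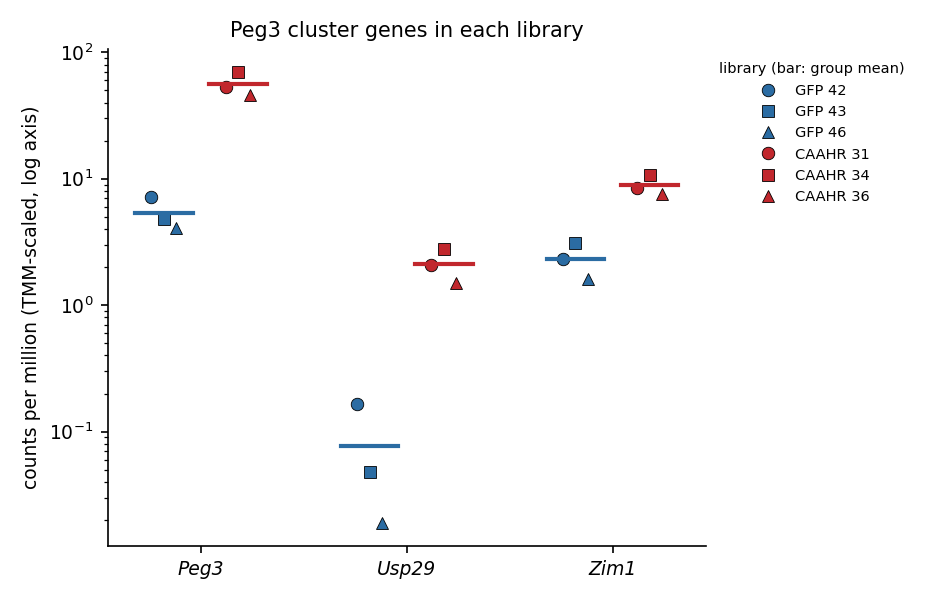
Level of Peg3, Usp29 and Zim1 (x axis) in each library, in TMM-scaled CPM on a log axis; points are libraries, blue for AAV9-HSA-GFP and red for AAV9-HSA-CAAHR, and bars group means. No red point lies at or below a blue point of the same gene, and the groups are closest for Zim1, with 3.08 CPM in GFP 43 and 7.60 CPM in CAAHR 36.

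Per length of transcript the 3 genes of the cluster lay far apart. In TPM (counts per exon length, scaled to the same total in each library), Peg3 reached 11.7 ± 2.61 in AAV9-HSA-CAAHR muscles, Zim1 3.05 ± 0.55 and Usp29 0.327 ± 0.0979 (SD, n = 3). In AAV9-HSA-GFP muscles Peg3 was at 1.03 ± 0.36 TPM, Zim1 at 0.729 ± 0.22 TPM and Usp29 at 0.0111 ± 0.0115 TPM. By group mean Peg3 thus stood above Zim1 in both groups, but within AAV9-HSA-GFP muscles by about the spread between libraries. In GFP 43 Peg3 lay slightly below Zim1 per exon length, with 201 counts over 13324 bases against 128 counts over 8086 bases. Part of the exons of Usp29, 14.3% of their length, overlaps Zim3 on the opposite strand; Zim3 had at most 5 counts in a library, as had the other untested neighbours.

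Ratios between genes of the cluster were computed in each library. The log2 ratio of Zim1 to Peg3 counts was -2.65, -2.71 and -2.59 in CAAHR 31, 34 and 36, and -1.63, -0.64 and -1.30 in GFP 42, 43 and 46, a difference in means of -1.46 with no overlap. The log2 ratio of Usp29 to Peg3 was higher by 0.93 in AAV9-HSA-CAAHR muscles, also without overlap, but rests on the few Usp29 counts of AAV9-HSA-GFP muscles. With 3 libraries against 3, the smallest p that the two-sided exact permutation test allows is 0.1, which both ratios reached, and the value adjusted over the 14 ratios computed was 0.175, so unequal changes of these genes were not shown.

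The surroundings of the cluster were measured as well. Of 46 genes with a start within 500 kb of a start in the cluster, 10 were tested and 0 were called by edgeR, DESeq2 or limma-voom. An unadjusted p under 0.05 in edgeR was reached by 1. Among all tested genes 7.6% were called and 23.9% had an unadjusted p under 0.05 by edgeR, so few would fall among 10 genes in any case. In 2 of the 10 every AAV9-HSA-CAAHR library was above every AAV9-HSA-GFP library, beside 15% of all tested genes. These 10, of which most are zinc-finger genes, had log2 fold changes from -0.35 to 0.49, with a median of -0.03. Zfp28, the gene with the unadjusted p, had 3.78 ± 0.0987 CPM against 2.84 ± 0.38 CPM (log2 fold change 0.41 ± 0.16, edgeR adjusted p = 0.159). The nearest of the 10, Smim17, starts 332 kb from the Peg3 start; the other 36 genes had at most 5 counts in any library.

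**Figure D3:**
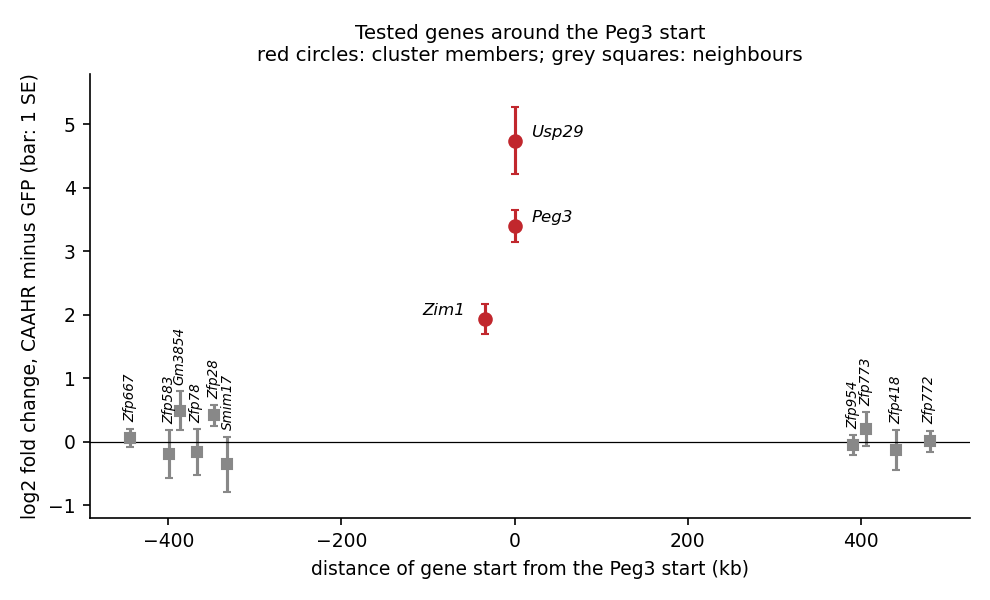
Log2 fold change (y axis, AAV9-HSA-CAAHR minus AAV9-HSA-GFP, bars 1 SE) against the distance of a gene's start from the Peg3 start in kb (x axis), for the 3 cluster genes (red circles) and the 10 tested neighbours (grey squares). The cluster genes lie between 1.94 and 4.74 and the neighbours between -0.35 and 0.49.

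Peg3 is also known from satellite cells, the stem cells of muscle, and from interstitial cells. For the marker lists here, the shares over all tested genes by edgeR were 7.6% called and 23.9% at an unadjusted p under 0.05. Of 10 tested satellite cell and regenerating fibre markers, edgeR and limma-voom called 0 (1 at an unadjusted p under 0.05 in edgeR). DESeq2 tested 12 and called 1, Myog, an activator of muscle differentiation at 4.14 ± 1.21 CPM against 2.04 ± 0.54 CPM. By edgeR 8 of the 10 had a positive log2 fold change, with a median of 0.20 and a highest value of 1.02. The summed level of the markers was 114 to 147 CPM in AAV9-HSA-CAAHR muscles against 116 to 130 CPM in AAV9-HSA-GFP muscles. Pax7, which defines satellite cells, was at 2.35 ± 0.44 CPM against 2.20 ± 0.52 CPM. Of 13 fibroblast and fibro-adipogenic progenitor markers 0 were called by edgeR and limma-voom (1 at an unadjusted p under 0.05) and 1 by DESeq2 (Dpt), with a summed level of 460 to 851 CPM against 658 to 818 CPM. Pdgfra, a defining marker of these cells, was at 12.0 ± 2.82 CPM against 11.3 ± 1.5 CPM. In bulk muscle, more cells of a type and more RNA per cell cannot be told apart.

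Peg3 and Zim1 were called without each of the 6 libraries in turn. The log2 fold change of Peg3 then ran from 3.20 to 3.67 and that of Zim1 from 1.73 to 2.18. They were also called with the slow-fibre level of each library as a covariate, at 4.14 and 2.49.

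Igf2r encodes the receptor that clears IGF2, a growth factor, from the cell surface, and is read from the maternal copy. It had 93.8, 101.2 and 115 CPM in CAAHR 31, 34 and 36 and 72.4, 75.2 and 76.2 CPM in GFP 42, 43 and 46, without overlap. The log2 fold change was 0.47 ± 0.10 (edgeR, adjusted p = 0.0236), a 1.39-fold difference in means. Airn, the paternally expressed noncoding RNA that silences Igf2r in cis, had 3.38, 4.59 and 4.71 CPM against 4.72, 4.49 and 4.46 CPM, and the groups overlapped (log2 fold change -0.11 ± 0.16). The log2 ratio of Airn to Igf2r was lower in every AAV9-HSA-CAAHR library, from -4.78 to -4.45 against -4.08 to -3.93 (exact permutation p = 0.1, the smallest possible). The call of Igf2r was lost without CAAHR 36 (log2 fold change 0.38, adjusted p = 0.0953), without GFP 42 (0.45, 0.078), GFP 43 (0.48, 0.0817) or GFP 46 (0.49, 0.0678), and with the slow-fibre covariate (0.41, 0.272), by the same edgeR test.

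Slc22a3, an organic cation transporter whose start lies 261960 bp from that of Igf2r and which is imprinted in the placenta, was higher as well. It had 5.18, 10.9 and 6.04 CPM in CAAHR 31, 34 and 36 and 2.03, 1.08 and 0.642 CPM in GFP 42, 43 and 46, and the groups did not overlap. Its log2 fold change was 2.56 ± 0.46 (edgeR, adjusted p = 0.022), and the call was lost without CAAHR 36 (2.68, adjusted p = 0.0588) or without GFP 43 (2.47, adjusted p = 0.109). The other 12 tested genes within 500 kb of the Igf2r cluster were not called.

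Nnat, a small membrane protein gene read from the paternal copy, lies within an intron of Blcap, named for a bladder cancer-associated protein. Nnat had 5.70, 5.50 and 2.67 CPM in CAAHR 31, 34 and 36 and 16.6, 10.2 and 12.97 CPM in GFP 42, 43 and 46. No library of one group reached the other, and the log2 fold change was -1.52 ± 0.30 (edgeR, adjusted p = 0.0268). Blcap was lower too, at 25.1, 23.3 and 22.8 CPM against 29.8, 30.0 and 31.9 CPM (log2 fold change -0.37 ± 0.09, edgeR adjusted p = 0.0371). The log2 ratio of Nnat to Blcap was lower by 1.20 on average, without overlap, but did not pass the test (exact permutation p = 0.1, the smallest possible; 0.175 adjusted over the 14 ratios).

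Neither call was kept in every fit without a library. Nnat was no longer called by edgeR without CAAHR 31 (log2 fold change -1.70, adjusted p = 0.0557), GFP 42 (-1.33, 0.0682) or GFP 46 (-1.54, 0.0876), or with the slow-fibre covariate (-1.04, 0.426). Blcap was called in none of the 6 fits without a library (adjusted p = 0.0558 to 0.133), nor with library size scaling (-0.28, 0.0846) or the slow-fibre covariate (-0.45, 0.217). Markers of immune cells, adipocytes and nerve were also mostly lower in AAV9-HSA-CAAHR muscles. The log2 fold change was positive in 0 of 12 immune, 1 of 8 adipocyte and 0 of 9 Schwann cell and nerve markers. By edgeR 10, 3 and 3 of them were lower at an unadjusted p under 0.05, beside 23.9% of all tested genes in either direction. Called lower were 4.57% of all tested genes. Of 12 immune cell markers 4 were called lower and 0 higher, with a summed level of 8.96 to 12.98 CPM in AAV9-HSA-CAAHR muscles against 18.7 to 40.6 CPM in AAV9-HSA-GFP muscles. The paper attributes lower immune genes here to a local immune response to the GFP virus. Its quantitative PCR found selected immune genes not lower in CAAHR muscles than in mice without virus. No such mice were sequenced in these 6 libraries. Of 8 adipocyte markers 3 were called lower (summed level 299 to 464 CPM against 376 to 465 CPM), and of 9 Schwann cell and nerve markers 1 was (50.7 to 83.6 CPM against 81.6 to 140 CPM). Of 8 endothelial markers 0 were called by edgeR, DESeq2 or limma-voom, with 0 at an unadjusted p under 0.05 (227 to 331 CPM against 243 to 290 CPM). Among all tested genes edgeR called 7.6% in either direction. The part of these cells in the fall of Nnat and Blcap was not tested.

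**Figure D4:**
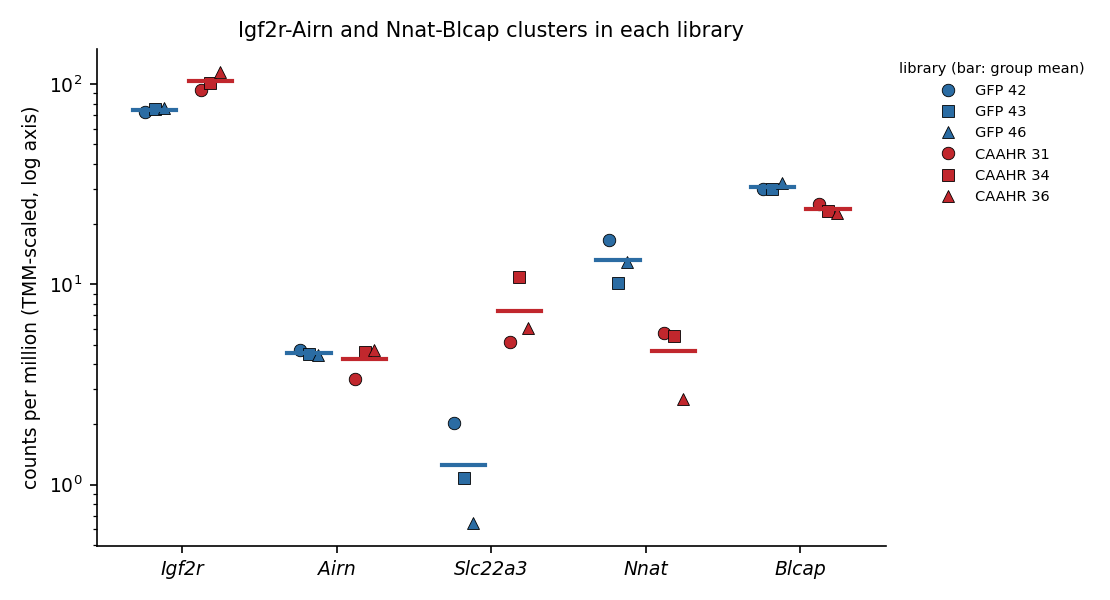
Level of Igf2r, Airn, Slc22a3, Nnat and Blcap (x axis) in each library, in TMM-scaled CPM on a log axis; points are libraries, blue for AAV9-HSA-GFP and red for AAV9-HSA-CAAHR, and bars group means. The groups are apart for each gene but Airn, whose values lie between 3.38 and 4.72 CPM.

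H19, a maternally expressed noncoding RNA that is abundant in growing muscle, had the highest mean TPM of the 35 genes (284 TPM over all libraries). It was at 513, 181 and 375 CPM in CAAHR 31, 34 and 36 and at 145, 200 and 147 CPM in GFP 42, 43 and 46. CAAHR 34 lay below GFP 43, so the groups overlapped, and H19 was not called (log2 fold change 1.12 ± 0.38, edgeR adjusted p = 0.141). Without CAAHR 34 it was called, at 1.43 (adjusted p = 0.00133), and with all libraries limma-voom with sample weights called it, at 1.08 (adjusted p = 0.0435). Igf2, the paternally expressed growth factor gene of the same cluster, had 17.8, 13.9 and 12.1 CPM against 15.9, 16.9 and 16.6 CPM, and was not called (-0.17 ± 0.14). Exon positions that Igf2 shares with the overlapping gene Gm49394 make up 62.8% of its length, so reads there could have been left uncounted or split. The log2 ratio of H19 to Igf2 was 4.85, 3.70 and 4.95 in CAAHR 31, 34 and 36 and 3.19, 3.56 and 3.15 in GFP 42, 43 and 46, which did not overlap.

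CAAHR 34 was also the lowest library of its group in slow-fibre genes. Myh7, the myosin of slow fibres, was at 877, 156 and 809 CPM in CAAHR 31, 34 and 36 and at 37.5, 52.6 and 79.5 CPM in GFP 42, 43 and 46 (log2 fold change 3.44 ± 0.78, edgeR adjusted p = 0.0691), and passed the threshold by DESeq2 (0.000136), by limma-voom (0.00413), by edgeR without robust estimation (0.0107) and without CAAHR 34 (0.00188). The summed level of 9 slow-fibre markers was 2783, 649 and 2518 CPM in these AAV9-HSA-CAAHR libraries and 228 to 461 CPM in AAV9-HSA-GFP muscles, with 1 marker (Myh7b) called higher by edgeR, 8 by DESeq2 and 9 by limma-voom. Without CAAHR 34 edgeR called 7 of them, and without each other library in turn 0. The same order of CAAHR 31, 36 and 34 held for the summed fibroblast markers (851, 782 and 460 CPM) and endothelial markers (331, 321 and 227 CPM). With the slow-fibre level as a covariate, the log2 fold change of H19 was -0.33 (adjusted p = 0.733). That fit called 3 of the 34 imprinted genes, Peg3, Usp29 and Zim1, in place of 6, and 2.85% of all tested genes in place of 7.6%. The summed slow-fibre level did not overlap between the groups, so the covariate and the delivered gene cannot be fully told apart, and the part of fibre type or of these other cells in the H19 values was not tested.

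**Figure D5:**
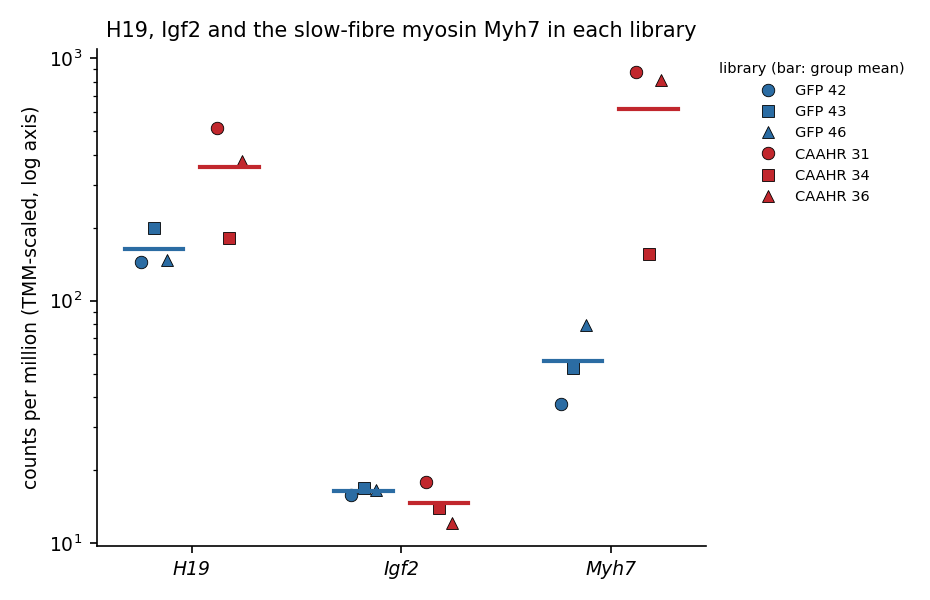
Level of H19, Igf2 and the slow-fibre myosin gene Myh7 (x axis) in each library, in TMM-scaled CPM on a log axis; points are libraries, blue for AAV9-HSA-GFP and red for AAV9-HSA-CAAHR, and bars group means. CAAHR 34 (red square) is the lowest red point for H19 (181 CPM) and for Myh7 (156 CPM).

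Further imprinted genes reached an unadjusted p under 0.05 in the edgeR test but were not called. Impact, a paternally expressed gene for a regulator of translation, had 24.8, 25.7 and 22.3 CPM in CAAHR 31, 34 and 36 and 19.8, 19.6 and 14.7 CPM in GFP 42, 43 and 46 (log2 fold change 0.43 ± 0.13, adjusted p = 0.0749). It passed the threshold with library size scaling (adjusted p = 0.042), without a filter on low counts (0.00451) and by the Wald test of DESeq2 (0.0478). Cdkn1c, a maternally expressed inhibitor of the cell cycle, had 15.0, 16.5 and 18.5 CPM against 20.02, 21.1 and 21.2 CPM (-0.31 ± 0.10, edgeR adjusted p = 0.0998), and was called lower with upper quartile scaling (-0.39, adjusted p = 0.0476). It shares 30.7% of its exon length with the antisense gene Gm44732. Kcnq1ot1, the noncoding RNA of the same cluster, had 14.8 ± 1.47 CPM against 13.6 ± 0.82 CPM, and its log2 ratio to Cdkn1c was higher by 0.43, without overlap.

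Mcts2, a paternally expressed retrogene inside H13, had 2.99, 3.10 and 3.10 CPM in CAAHR 31, 34 and 36 and 4.19, 4.57 and 3.78 CPM in GFP 42, 43 and 46 (log2 fold change -0.45 ± 0.15, edgeR adjusted p = 0.104). H13, a signal peptide peptidase gene, had 33.1 ± 3.31 CPM against 32.2 ± 2.17 CPM, and the log2 ratio of Mcts2 to H13 was lower by 0.48 on average, without overlap. Peg13, a noncoding RNA within Trappc9, had 49.9, 55.6 and 53.2 CPM against 46.5, 47.1 and 35.6 CPM (0.30 ± 0.12, adjusted p = 0.166). Trappc9 itself, a subunit gene of a trafficking complex, had 61.2, 71.9 and 71.2 CPM against 59.5, 58.7 and 57.5 CPM (0.22 ± 0.09, adjusted p = 0.197). In each of these genes but H13 the groups did not overlap, and in none did the difference pass the threshold.

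Snrpn, a paternally expressed gene for a splicing factor, had 53.5, 50.9 and 60.6 CPM in CAAHR 31, 34 and 36 and 44.7, 44.8 and 50.2 CPM in GFP 42, 43 and 46 (log2 fold change 0.24 ± 0.10, edgeR adjusted p = 0.178). Ndn, a neighbour read from the same copy, had 2.94 ± 0.41 CPM against 3.53 ± 0.73 CPM, and the log2 ratio of Snrpn to Ndn was higher by 0.49, without overlap. Zrsr1, a splicing-related retrogene within Commd1, had 18.1, 21.7 and 21.8 CPM against 18.05, 17.1 and 16.9 CPM (0.24 ± 0.10, edgeR adjusted p = 0.191), with its lowest AAV9-HSA-CAAHR and highest AAV9-HSA-GFP libraries next to each other. Commd1, a gene for a copper and NF-kB related protein, was at 34.2 ± 2.68 CPM against 30.6 ± 2.37 CPM. Reads of Snrpn and Zrsr1 are less certain, since both share exon positions with other annotated genes. Of the 14 ratios within clusters, 8 did not overlap between the groups; the same measure was not computed for other gene pairs.

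The remaining 20 tested genes had an unadjusted p of 0.05 or more and log2 fold changes from -0.73 to 0.27. The 4 genes of the Peg10-Sgce cluster all had lower means in AAV9-HSA-CAAHR muscles, with log2 fold changes from -0.42 to -0.24. They were Peg10, a retrotransposon-derived gene, at 1.61 ± 0.37 CPM against 2.14 ± 0.43 CPM, Sgce, the epsilon-sarcoglycan gene, at 5.90 ± 0.54 CPM against 6.94 ± 0.77 CPM, Ppp1r9a, at 1.56 ± 0.17 CPM against 1.90 ± 0.71 CPM, and Asb4. Asb4 did not overlap, at 13.1 ± 1.01 CPM against 15.7 ± 2.09 CPM (-0.26 ± 0.12, edgeR adjusted p = 0.224). The 5 genes of the Dlk1-Meg3 cluster lay between -0.21 and 0.14. Meg3, the noncoding RNA of that cluster, was at 18.7 ± 1.80 CPM against 17.1 ± 1.01 CPM, and Dlk1, a gene for a Notch-family protein, at 0.936 ± 0.18 CPM against 0.941 ± 0.16 CPM. The noncoding RNAs Rian and Mirg were at 4.46 ± 0.20 CPM against 4.18 ± 0.91 CPM and at 0.417 ± 0.081 CPM against 0.479 ± 0.16 CPM, and Begain was at 0.416 ± 0.017 CPM against 0.377 ± 0.068 CPM. Plagl1, a zinc-finger gene, had the lowest value of the 20, at 0.422 ± 0.12 CPM against 0.699 ± 0.33 CPM (-0.73 ± 0.41), and Mest, paternally expressed, had 2.89 ± 0.43 CPM against 4.08 ± 2.16 CPM. Gnas, which encodes the stimulatory G protein subunit, has transcripts from either parental copy and was among the most abundant of these genes, was at 497 ± 21.9 CPM against 505 ± 23.3 CPM (-0.02 ± 0.10). Grb10, a gene for an adaptor of growth factor receptors, was at 20.7 ± 4.75 CPM against 21.9 ± 3.25 CPM (-0.07 ± 0.18), and Slc38a4, an amino acid transporter gene, at 147 ± 16.5 CPM against 122 ± 25.7 CPM (0.27 ± 0.16).

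Genes next to imprinted clusters that are not among the 35 were called at 15 of 149 tested (5 higher, 10 lower), beside 7.6% of all tested genes. The count includes genes such as Ddc and Pon1 that had to differ by the way they passed the filter, so it does not show an excess. Next to H19 and Igf2 were 4 of these. Tnnt3 and Tnni2, the fast-fibre troponins, fell by log2 0.69 and 0.57, Prr33 fell by 0.70, and Lsp1, a leukocyte-specific protein gene, was higher by 0.98. Tnnt3 and Tnni2 are muscle fibre markers, of which 4 of 10 were called lower and 0 higher. Ddc, next to Grb10, rose by 1.88, and Ikzf1, a lymphocyte transcription factor, fell by 2.498. Pon1, near Peg10, fell by 3.18 and Pdk4, a kinase of pyruvate dehydrogenase, rose by 1.44. Ddc and Pon1 passed the filter on low counts only through their higher group, so their changes are given as a description. Tnfrsf22 and Tnfrsf23 near Cdkn1c fell by 0.92 and 0.98, Tpx2 near H13 fell by 0.78, and Samhd1 near Nnat fell by 0.76. Slc22a3 near Igf2r and Ago2 near Peg13 rose by 2.56 and 0.39. The count fell to 7 without CAAHR 31, to 6 without CAAHR 36, to 9 without GFP 42 and to 7 with the slow-fibre covariate. Tnnt3 and Tnni2 lost their calls with that covariate and without CAAHR 31, CAAHR 36, GFP 42, GFP 43 or GFP 46. Pdk4, Tnfrsf22, Tnfrsf23 and Tpx2 lost theirs at least with the covariate, without CAAHR 31 and without CAAHR 36. Prr33, Samhd1 and Ikzf1 lost theirs with the covariate.

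Of 55 further imprinted genes, 36 were tested and 4 were called, beside 7.6% of all tested genes. Called were 3 higher (Slc22a3, Ddc and Ago2) and 1 lower (Pon1), and the median log2 fold change was 0.02. Of these 4, Ddc and Pon1 passed the filter on low counts only through their higher group. They had to differ, so the count of 4 overstates the share set beside 7.6%. Ddc, an enzyme of dopamine and serotonin synthesis that is imprinted in heart, was at 0.761 ± 0.24 CPM against 0.209 ± 0.0903 CPM, and Pon1, a paraoxonase gene, at 0.0607 ± 0.0409 CPM against 0.562 ± 0.15 CPM (edgeR adjusted p = 0.0257 and 0.00817). Ago2, a gene of the small RNA pathway next to Peg13 and Trappc9, was at 95.8 ± 10.3 CPM against 73.1 ± 2.88 CPM (adjusted p = 0.0494), and was called in none of the 6 fits without a library. Without single libraries Ddc was called only when GFP 43 was left out, while Pon1 was called in each of the 6 fits. These calls say nothing of stability, since the lower group was near the floor in both. Ddc had 7, 13 and 9 counts in GFP 42, 43 and 46, and Pon1 had 5, 1 and 4 in CAAHR 31, 34 and 36. Dcn, Calcr and Kcnq1, also imprinted in some tissues, were not called (log2 fold changes of -0.17 ± 0.23, 0.44 ± 0.45 and 0.06 ± 0.32). With the slow-fibre covariate, however, Dcn was called lower (-1.23, edgeR adjusted p = 0.00811).

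Of 25 regulators of imprinting and DNA methylation, 23 were tested, with a median log2 fold change of 0.12. Of these, 2 were called, beside 7.6% of all tested genes. Tet2, an enzyme that oxidises methylated cytosine, was higher, at 39.2, 52.4 and 38.3 CPM in CAAHR 31, 34 and 36 against 15.4, 12.3 and 12.9 CPM in GFP 42, 43 and 46 (log2 fold change 1.68 ± 0.15, edgeR adjusted p = 0.000383). As in the Peg3 cluster, CAAHR 34 was its highest and CAAHR 36 its lowest AAV9-HSA-CAAHR library. Dnmt3a, a DNA methyltransferase gene, was lower, at 33.7, 30.7 and 29.0 CPM against 39.6, 38.3 and 49.0 CPM (-0.44 ± 0.12, adjusted p = 0.0487), and was called in none of the 6 fits without a library (adjusted p from 0.0646 to 0.167). The other 21 were not called.

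Of 17 partners of the IGF2 pathway, 15 were tested and 1 was called, beside 7.6% of all tested genes. Igf1, the growth factor that shares a receptor with IGF2, was lower, at 6.68, 4.32 and 4.66 CPM in CAAHR 31, 34 and 36 against 10.7, 9.97 and 10.9 CPM in GFP 42, 43 and 46 (log2 fold change -1.01 ± 0.17, edgeR adjusted p = 0.00773), without overlap. The median over the 15 genes was -0.09. Igf1 was called without each library in turn, as was Tet2.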

How the data were processed

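RNA from 6 gastrocnemius samples was sequenced, 3 per group, grouped by their titles; whether each library came from a separate mouse is not given in the labels, and p-values measure the spread between these libraries. The authors selected poly(A) RNA, trimmed paired reads with Trimmomatic 0.36, aligned them to GRCm38 with STAR 2.5.2b (versions from the submitters' processing notes) and counted unique reads over exons with featureCounts. The strand setting is not given in the sources used here, so reads of overlapping antisense genes may be mixed. The deposited values are raw counts per gene, neither normalised nor pooled; the authors' own DESeq2 results were not used. The labels name no batch. A chi-square over genes, divided by its degrees of freedom, was 23.7 or more for every pair of libraries within a group, above sampling noise.

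Counts were tested with edgeR 4.0.16 in R 4.3.3 (filterByExpr, TMM, robust glmQLFit, glmQLFTest) over 15847 genes, with Benjamini-Hochberg adjustment and a threshold of 0.05. The method was tested on simulated data in 3 runs. It recovered 84 to 93% of 4-fold and 65 to 70% of 2-fold changes. Unchanged genes made up 6.5 to 9.4% of the calls, so calls near the threshold are less certain. SE is the log2 fold change divided by the square root of F. TPM used merged exon lengths of GENCODE M21, to which 99.3% of 49315 rows matched; 174 rows without a symbol held 0.0154% of counts. Ratios used counts plus 2 and an exact permutation test. Intervals and floors cover counting error only. DESeq2 1.42.0 and limma 3.58.1 were among the alternatives. All 35 genes are named, those at an unadjusted p under 0.05 with every library's value; of other lists and neighbours, called genes were named, apart from 1 neighbour that is not reported here. The members and lists were chosen with earlier results of these data known. Zfp28, Myog, Dpt and the ranking of libraries were picked after their values were seen.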

Additional observations from a re-analysis of the deposited data

How the results depend on the processing

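Peg3 and Zim1 were called in all 15 alternative fits. Usp29, which entered the test through its high group alone, was not tested with at least 10 counts in every library, so its calls in the other fits say nothing of stability. The same holds for Ddc and Pon1. With the slow-fibre covariate, 3 imprinted genes, 7 neighbours and 451 of all genes were called. Without a filter on low counts, 2470 genes and 12 genes of the other imprinted, regulator and IGF2 lists (7 with the filter) were called; with at least 10 counts in every library, 4 of the latter. DESeq2's Wald test called 1923 genes. Leaving out 1 library in turn gave 3 to 6 imprinted genes (3 without GFP 42 or GFP 46), Peg3 and Zim1 always among them, 530 to 1727 of all genes (694 without CAAHR 31, 530 without CAAHR 36, 701 without GFP 43, 604 without GFP 46, 1727 without CAAHR 34), 3 to 8 of the other lists (3 without CAAHR 36, 4 without CAAHR 31, GFP 43 or GFP 46) and 6 to 15 neighbours. Of 509 checks of single imprinted genes, 463 kept direction and call, 17 lost a call, 6 gained one and 23 turned direction, the last all in genes that were not called. The log2 fold change turned to -0.031 for H13 and -0.012 for Kcnq1 with upper quartile scaling, to 0.074 for Dlk1, 0.012 for Grb10 and 0.059 for Gnas with library size scaling, and to 0.010 for Dlk1 without a filter. With the covariate it was 0.18 for Peg10, -0.33 for H19, 0.11 for Airn, 0.59 for Dlk1 and 0.071 for Gnas. Over the fits without a library it ranged from -0.20 to 0.023 for Airn, -0.18 to 0.093 for Dlk1, -0.19 to 0.097 for Grb10, -0.034 to 0.11 for H13, -0.33 to 0.073 for Dcn, -0.14 to 0.30 for Kcnq1, -0.46 to 0.059 for Ppp1r9a, -0.76 to 0.022 for Mest, -0.061 to 0.26 for Rian, -0.39 to 0.10 for Mirg and -0.067 to 0.0051 for Gnas. The log2 ratios that turned so ranged from -0.41 to 0.026 (Peg10/Sgce), -0.14 to 0.0998 (Rian/Meg3), -0.00395 to 0.14 (Zrsr1/Commd1) and -0.027 to 0.16 (Peg13/Trappc9). The cause was not tested; fewer libraries leave fewer degrees of freedom. The neighbour alternatives were chosen after seeing the data. No paired analysis was possible because no replicate number occurs in both groups. Depth limits Usp29 in AAV9-HSA-GFP muscles (8, 2 and 1 counts) and Phlda2.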
